A study of Mus musculus with 32 samples.

Results

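The phase II conjugation enzymes were examined in liver, calf muscle and hypothalamus of mice with COX10 deleted by design in skeletal muscle. Members were taken by symbol after the Ensembl identifiers of the count files had been matched to the GRCm38 annotation: protein-coding genes of the cytosolic and mitochondrial glutathione S-transferases (GST), the microsomal glutathione S-transferases (MGST), the sulfotransferases (SULT) and the UDP-glucuronosyltransferases (UGT). The pattern matched 75 symbols, of which 8 were pseudogenes and were left out, and the remaining 67 members of the 55401 annotated genes were 22 GST, 3 MGST, 21 SULT and 21 UGT genes.

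Phase II enzymes attach a polar group to a drug, hormone, bile acid or reactive lipid, which makes the product easier to excrete. GST and MGST enzymes use glutathione, SULT enzymes transfer sulfate from the activated donor PAPS, and UGT enzymes transfer glucuronic acid from UDP-glucuronic acid. Liver is the main site of conjugation, and in rodents many of its conjugation enzymes differ between the sexes under the control of the pulsatile or continuous pattern of growth hormone.

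COX10 is the farnesyltransferase that converts heme B to heme O, a step towards the heme A of cytochrome c oxidase, the last complex of the respiratory chain. The COX10 KO mice carried homozygous floxed COX10 alleles and Cre recombinase expressed from the Myl1 locus, which is active in skeletal muscle fibers, so that liver and hypothalamus were not targeted. The controls (CTL) were littermates of the same age, whose Cre and floxed alleles are not given in the labels. All mice were C57BL/6 and 200 days old, and 3′ RNA-seq libraries were made from liver and from calf muscle of 3 females and 3 males of each genotype and from hypothalamus of 4 males of each genotype.

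Library totals were 674311 to 16044634 counts in liver, 434494 to 11404800 in muscle and 3526613 to 22321322 in hypothalamus. In liver, 2 of the 12 libraries went against their labelled sex in Xist and Y-linked transcripts: CTL 1, labelled female, and CTL 4, labelled male. In muscle, CTL 2 had the fewest counts and stood apart, with a summed level of 5 hepatocyte markers of 2084 CPM (read counts scaled to library size) against 41.4 to 155 in the other CTL muscles. It stood apart in other lists too, with adipocyte markers at 3368 CPM against 213 to 612 and skeletal muscle markers at 43690 CPM against 81175 to 126851. Its blood and microglia markers lay within the range of the other CTL muscles. The value of CTL 2 is thus uncertain for every member below, and not only for those that liver also expresses. In liver, CTL 3 stood apart, with blood markers at 12380 CPM against 1149 to 2901 CPM in the other CTL livers. It also had the lowest summed GST level of the livers, 3234 CPM, and is among the CTL females of the comparison of sexes below. Skeletal muscle markers summed to 546 CPM in liver COX10 KO 6 and 109 CPM in COX10 KO 4, against at most 29.5 CPM in the other livers. The part of these in the members' values was not tested. Cox10 itself was counted at 95.2 to 140 CPM in KO muscles and at 46.4 to 144 CPM in control muscles. These tags mark the 3′ end of the transcript, and whether they lie inside the excised part is not given in the sources used here, so they do not check the deletion. In bulk tissue, fewer cells of a type and less RNA per cell cannot be told apart.

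Liver held most of the conjugation transcripts. Summed over all 67 members, CTL liver reached 12235 ± 3790 CPM (SD, n = 6), against 753 ± 105 CPM in CTL muscle (n = 6) and 966 ± 165 CPM in CTL hypothalamus (n = 4). CPM are read counts per 1e+06 reads of library size, scaled by trimmed-mean (TMM) factors within each tissue, and because each read marks 1 transcript end, it does not grow with transcript length. The scaling was set separately in each tissue, so levels are compared between tissues as a description, without a test. In 25 of 67 members, every CTL liver library lay above every CTL library of the other tissues (27 with raw library totals), while the same held in hypothalamus for Gstm5 and Sult4a1 and in muscle for no member. The share of all genes that separate in this way was not counted, so these counts do not set the members apart from other genes.

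The families had different shares in each tissue. In CTL liver, GST members made up 52.2% of the members' summed CPM, MGST 17.6%, UGT 17.8% and SULT 12.3%. In CTL muscle, GST members made up 84.2% and UGT members 0.603%. In CTL hypothalamus, SULT members made up 32.6%, nearly all of it from Sult4a1, a brain sulfotransferase at 308 ± 65.2 CPM (SD, n = 4), and UGT members 0.0746%. The UGT sum in muscle ranged from 0 to 25 CPM among controls, where the highest library was CTL 2, and from 0 to 6.31 CPM among KO muscles. The leading member of each minor family was Mgst1 (45.7 ± 54.5 CPM), Sult1a1 (25.6 ± 16.4 CPM) and Ugt2b5 (1.39 ± 2.85 CPM) in CTL muscle, and Mgst3 (20 ± 6.75 CPM) and Ugt3a2 (0.238 ± 0.446 CPM) in CTL hypothalamus. Without muscle CTL 2, Mgst3 (33.3 ± 3.67 CPM) lay above Mgst1 (23.7 ± 10.5 CPM) and Ugt2b36 (0.436 ± 0.667 CPM) above Ugt2b5 (0.237 CPM, range 0 to 1.06 CPM; SD, n = 5).

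**Figure D1:**
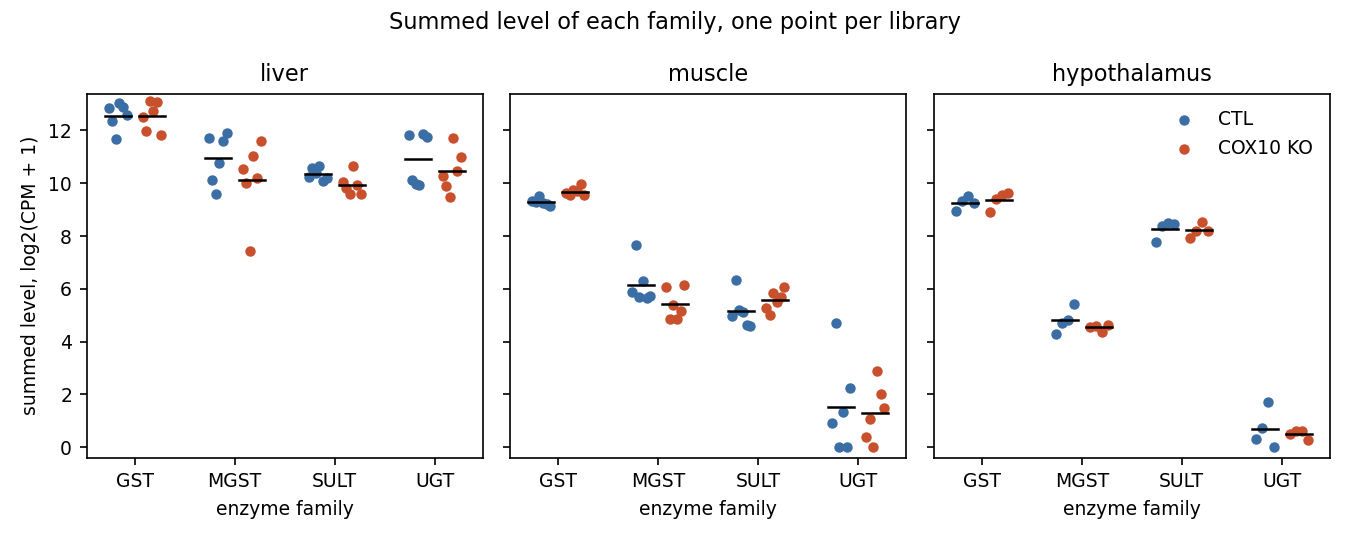
Summed level of each enzyme family in liver, muscle and hypothalamus on the scale log2(CPM + 1), with 1 point per library, CTL in blue, COX10 KO in orange and the mean of these log values as a black bar. GST members lead in all 3 tissues, SULT members are second in hypothalamus, and UGT members are the lowest family outside liver by mean, with muscle CTL 2 (25 CPM) and COX10 KO 4 (6.31 CPM) above the other muscles.

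In liver the most abundant members were Gstm1, a mu class GST, at 2905 ± 1136 CPM, Mgst1, the membrane-bound enzyme that also reduces lipid peroxides, at 2302 ± 1267 CPM, and Gsta3, an alpha class GST, at 1606 ± 489 CPM (SD, n = 6 CTL libraries). They were followed by Ugt2b1 at 555 ± 461 CPM and Ugt2b5 at 528 ± 344 CPM, and Sult1a1, the phenol sulfotransferase, led its family at 425 ± 95.9 CPM. Neighbours in this order overlap within 1 SD, except Gsta3 and Ugt2b1. In muscle, Gstm1 led at 265 ± 36.4 CPM, followed by Gstm2 at 108 ± 38.4 CPM, Gsto1 at 70.6 ± 30.9 CPM, Gstm5 at 46.8 ± 16.8 CPM and Gstk1, the mitochondrial and peroxisomal GST, at 46.4 ± 11.5 CPM. In hypothalamus, Sult4a1 and Gstm1 (305 ± 70.2 CPM) were followed by Gstm5 at 98.3 ± 5.64 CPM, Gsto1 at 41.5 ± 16 CPM and Gstm7 at 39.6 ± 6.44 CPM.

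Not every member could be read. In all 32 libraries 10 members had 0 counts: Gstt3, Ugt2a1, Ugt2a2 and 7 of the 9 Ugt1a genes. The Ugt1a genes are variants of 1 locus on chromosome 1 that join their own first exon to a common set of last exons, and in the annotation 50.3% to 60.6% of their exon bases are shared on the same strand. For 9 members, which are the same 7 Ugt1a genes with Ugt2a1 and Ugt2a2, all 86-base stretches of the last 500 transcript bases also occur in another gene, so reads from these ends cannot be assigned to 1 gene by the counter used. A count of 0 for these 9 members is therefore not a measure of their expression, and the UGT sums above may leave out Ugt1a transcripts. Besides these, Ugt1a10 shared 82.2% and Ugt1a7c 43.1% of their stretches with other Ugt1a genes. Gstp1 shared 70.4% and Gstp2 49.2% with each other or a pseudogene, and Gsta1 79.8% and Gsta2 33.6% with each other or with related loci. Sult2a2 shared 36.6% with Sult2a1, Sult2a4 and Sult2a5, Sult2a5 35.2% with Sult2a2 and Sult2a4, and Gstt3 25.4% with Gm20441. The counts of all these members are uncertain, the 0 of Gstt3 included. Members with smaller shares are not listed.

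In muscle, the targeted tissue, Gsto1 was higher and Gstp1 lower in COX10 KO, and no other member was called. Gsto1, an omega class GST that reduces dehydroascorbate, removes glutathione from protein thiols and takes part in arsenic metabolism, was 5.36-fold higher. Gstp1, the pi class GST that conjugates electrophiles and binds stress kinases, was at 0.316 times the CTL level. Of the 67 members, 41 were counted in muscle and 18 passed the filter on low counts, and 2 of these 18 were called at an adjusted p under 0.05, beside 14.3% of the 11636 genes tested, 6.9% higher and 7.43% lower (edgeR quasi-likelihood test with labelled sex as covariate, Benjamini-Hochberg adjustment over all genes tested). The 18 members had 4 higher and 14 lower log2 fold changes with a median of -0.31, and the median over all genes tested was -0.03. The members' median was -0.15 without COX10 KO 6 and between -0.43 and -0.21 without any other single library.

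Gsto1 in CTL muscle lay between 34.1 and 118 CPM with a median of 62.6 CPM, and in COX10 KO muscle between 343 and 457 CPM with a median of 365 CPM. Every COX10 KO muscle of either sex exceeded every CTL muscle, and Gsto1 was the only member whose genotypes did not overlap in muscle, where 6.52% of genes tested did not overlap. The log2 fold change was 2.42 ± 0.25 (SE), with an adjusted p of 2.46e-05 in edgeR, and the two-sided exact permutation test of mean CPM gave p = 0.00216, the smallest that 6 against 6 can give. Under 20 alternative settings the log2 fold change stayed between 2.28 and 2.60 and was called in each. With this rise Gsto1 passed Gstm1 (206 ± 39.7 CPM) as the most abundant member in COX10 KO muscle. Its mean went from 70.6 ± 30.9 to 387 ± 49.1 CPM, while the summed GST level went from 628 ± 58.5 to 828 ± 91.2 CPM (SD, n = 6), a smaller step than that of Gsto1 alone.

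Gsto1 lies on the plus strand of chromosome 19 at 47854970 to 47864790. Its promoter, chr19:47854723-47855022 (GRCm38.p6, plus strand, from RefSeq, 250 bases before to 50 after the gene start), is shown because Gsto1 had the largest change among members in muscle, beside that of Gstp1, chr19:4037863-4038162 on the minus strand, which moved the other way. Capitals mark matches on either strand to 4 motifs: the antioxidant response element core TGACNNNGC, the C/EBP-ATF response element TGATGNAA, the xenobiotic response element core GCGTG, and the STAT motif TTCNNNGAA, which was added after the data were seen.
Gsto1: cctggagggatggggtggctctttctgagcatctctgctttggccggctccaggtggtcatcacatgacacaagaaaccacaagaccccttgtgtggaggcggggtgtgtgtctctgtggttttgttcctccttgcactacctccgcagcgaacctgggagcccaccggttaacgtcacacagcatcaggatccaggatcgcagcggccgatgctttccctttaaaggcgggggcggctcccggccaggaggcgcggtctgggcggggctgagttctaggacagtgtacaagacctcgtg
Gstp1: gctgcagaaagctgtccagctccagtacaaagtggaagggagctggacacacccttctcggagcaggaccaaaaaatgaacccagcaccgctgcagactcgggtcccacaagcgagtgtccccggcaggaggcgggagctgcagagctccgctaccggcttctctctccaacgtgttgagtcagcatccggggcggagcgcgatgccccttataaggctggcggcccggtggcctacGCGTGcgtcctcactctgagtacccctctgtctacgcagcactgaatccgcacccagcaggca
The Gsto1 window held no match to any of the 4 motifs. The Gstp1 window held 1 match to GCGTG, which starts at position -13 from the gene start, and 32.4% of the 32851 promoters in the table hold this motif. The antioxidant response element core was found in 4 of the 71 promoter windows of 59 members with an entry (Gsta3, Gstm5, Gstm7 and Mgst1) and in 12.4% of all promoters, and the C/EBP-ATF element in 1 (Sult1e1), with 3.97% of all promoters. A match describes the letters of the window and not a bound site.

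Gstp1 was a low-count member in muscle. In CTL it ranged from 1.79 to 7.52 CPM with a median of 6.10 CPM, and in COX10 KO from 0.877 to 3.90 CPM with a median of 1.49 CPM. The genotypes overlapped through CTL 2, which had 1 Gstp1 count in its shallow library, and 4 of 6 COX10 KO mice lay below every CTL mouse. The log2 fold change was -1.66 ± 0.38 (SE; edgeR adjusted p = 0.0104, exact permutation p = 0.00649), and without CTL 2 it was -1.78 with an adjusted p of 0.00403. In females alone it was -1.13 with an adjusted p of 0.307, and in males alone -2.25 with an adjusted p of 0.0413. Gstp2, the near-identical neighbour that shares its reads, averaged 3.43 ± 0.861 CPM in the CTL group against 2.83 ± 1.12 CPM in the KO group (SD, n = 6; adjusted p = 0.47 in edgeR).

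The next members by p-value were also at lower levels in COX10 KO muscle but did not pass the test. The log2 fold change of Gstm5, a mu class GST enriched in brain and testis, was -0.60 ± 0.22 (SE, adjusted p = 0.0762, edgeR), with 23.2 to 70.3 CPM in controls and 25.9 to 40.7 CPM in KO muscles, and that of Gstt1, a theta class GST, was -0.90 ± 0.33 (adjusted p = 0.0845). Without CTL 4 both were called, with adjusted p-values of 0.0453 and 0.0139, and without CTL 2 Gstm5 was called at 0.0388. For Mgst1 the change was -1.33 ± 0.58 (adjusted p = 0.136), and its highest value, 155 CPM, was that of CTL 2, against 17.9 to 42.4 CPM in the other CTL muscles. Gstm1 fell short as well, with 218 to 327 CPM in the CTL muscles, 147 to 265 CPM in the KO muscles and an adjusted p of 0.145. On the other side, Sult5a1 (log2 fold change 0.49, adjusted p = 0.279) and Sult1a1 (0.47, adjusted p = 0.375) had the smallest p-values among the higher members after Gsto1, and both turned to log2 fold changes of -0.10 and -0.068 in females alone.

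**Figure D2:**
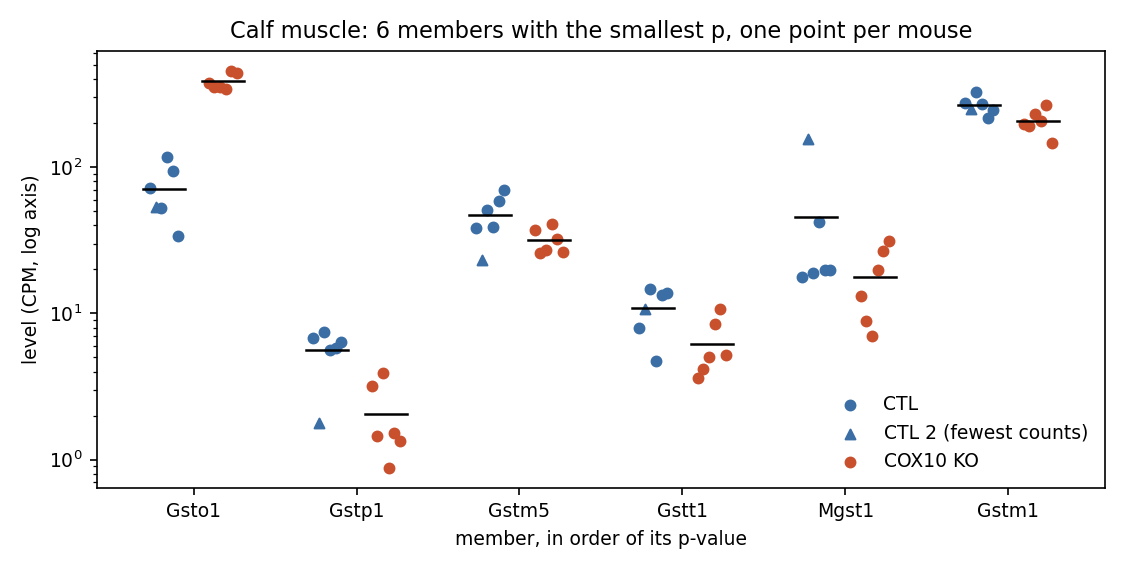
Level in CPM (log axis) of the 6 members with the smallest p-values in calf muscle, with 1 point per mouse, CTL in blue, COX10 KO in orange, CTL 2 as a triangle and the group mean as a black bar. Gsto1 lies between 343 and 457 CPM in all COX10 KO mice and at most at 118 CPM in CTL mice, while the other 5 members overlap between genotypes.

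Markers of other cells moved with genotype in the same muscles. The summed level of 7 macrophage markers ran from 44.7 to 129 CPM in controls and from 119 to 229 CPM in KO muscles, with 2 of 5 tested called higher (Cd68, 13.9-fold, and C1qa, 1.77-fold) and with Clec4f and Marco at 0 in all CTL muscles. The 4 satellite cell and regeneration markers summed to 16.1 to 31.9 CPM in controls against 136 to 217 CPM in KO muscles, and 2 of 5 muscle fiber markers, Myh4 and Tnnt3, were called lower. Of the other lists, 1 of 3 tested astrocyte markers (Aqp4), 1 of 4 endothelial markers (Stab2) and 1 of 2 neuron markers (Syt1) were called lower, and the astrocyte list summed to 11.9 to 62.5 CPM in controls against 3.06 to 9.90 CPM in KO muscles. No marker of the adipocyte, bile duct, blood, choroid plexus, fibroblast, hepatocyte, microglia or oligodendrocyte lists was called. The part of these cells in the Gsto1 and Gstp1 results was not tested.

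Enzymes that feed or accompany conjugation were described from lists. Of 11 tested genes of cofactor supply, 2 were called higher in COX10 KO muscle and 1 lower. Gclm, the regulatory subunit of the enzyme that starts glutathione synthesis, rose from 12.5 ± 4.03 to 22.3 ± 6.82 CPM (adjusted p = 0.0292), and Ugp2, which makes UDP-glucose, rose from 320.1 ± 94.5 to 557 ± 95.2 CPM (adjusted p = 0.0364, edgeR, SD, n = 6 each). Bpnt1, which clears the by-product of sulfation, fell from 11.5 ± 2.85 to 5.63 ± 2.29 CPM (adjusted p = 0.0201). Of 13 tested phase I enzymes, Por, the electron donor of cytochromes P450, and Nqo1, the quinone reductase, were 2.79-fold and 2.64-fold higher. Of 12 tested regulators, Rxra, Nr3c1, Stat5b and Bcl6 were called lower, and none of the 6 tested export transporters or 8 other conjugating enzymes was called.

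In liver, which was not targeted, no member was called between genotypes. Of the 67 members, 54 were counted and 38 passed the filter, with 12 higher and 26 lower log2 fold changes and a median of -0.35, beside a median of -0.02 over the 9707 genes tested. The members' median was -0.14 without CTL 1, and -0.15 both with sex read from transcripts and in the 10 libraries that match their label. It was -0.58 without COX10 KO 4, and -0.23 without CTL 4 or COX10 KO 2 and -0.24 without COX10 KO 6. Of the genes tested, 9 or 0.0927% were called (0.0206% higher and 0.0721% lower), 6 members had an unadjusted p under 0.05, and DESeq2 also called 0 members. No member had genotypes that did not overlap, beside 0.433% of genes tested. With sex read from the transcripts and in the 10 libraries that match their label, again 0 members were called. In simulated liver data only 5.26% of 2-fold changes were called, so a member that was not called may still differ.

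On the lower side, the 3 members with the smallest p-values were sulfotransferases. Sult5a1 ran from 14.4 to 85.5 CPM in controls and from 1.38 to 40.8 CPM in KO livers (median 47.4 and 17.8 CPM; log2 fold change -1.76, adjusted p = 0.574), Sult2a8, a hepatic bile acid sulfotransferase, at 194 to 750 and 22.9 to 562 CPM (log2 fold change -1.38, adjusted p = 0.886), and Sult3a2 at 0 to 77.6 and 0 to 8.92 CPM (log2 fold change -3.60, adjusted p = 0.924). Without any expression filter, edgeR called 4 members lower (Sult5a1, Sult2a3, Sult2a1 and Sult3a2), beside 57 higher and 118 lower of 20292 genes. That fit used the labelled sexes, under which CTL 1 and CTL 4 stand with the sex that their transcripts go against. All 4 members were called higher in females in the comparison of sexes below, and the part of sex in these calls was not tested. On the higher side stood Gstt2, a theta class GST whose p-value was second to that of Sult5a1 among all members, at 41.8 to 115 CPM in controls against 65.8 to 214 CPM in KO livers (log2 fold change 0.86, adjusted p = 0.872), followed by Sult1a1 (0.40) and Gstm5 (0.63). All groups of 6 overlapped, and the standard errors of the 38 log2 fold changes ran from 0.24 to 2.07, with Sult2a1 the widest. Of the list genes in liver, none was called between genotypes: 0 of 12 for cofactor supply, 0 of 24 for phase I enzymes, 0 of 14 for other conjugating enzymes, 0 of 8 for export transporters and 0 of 17 for regulators.

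**Figure D3:**
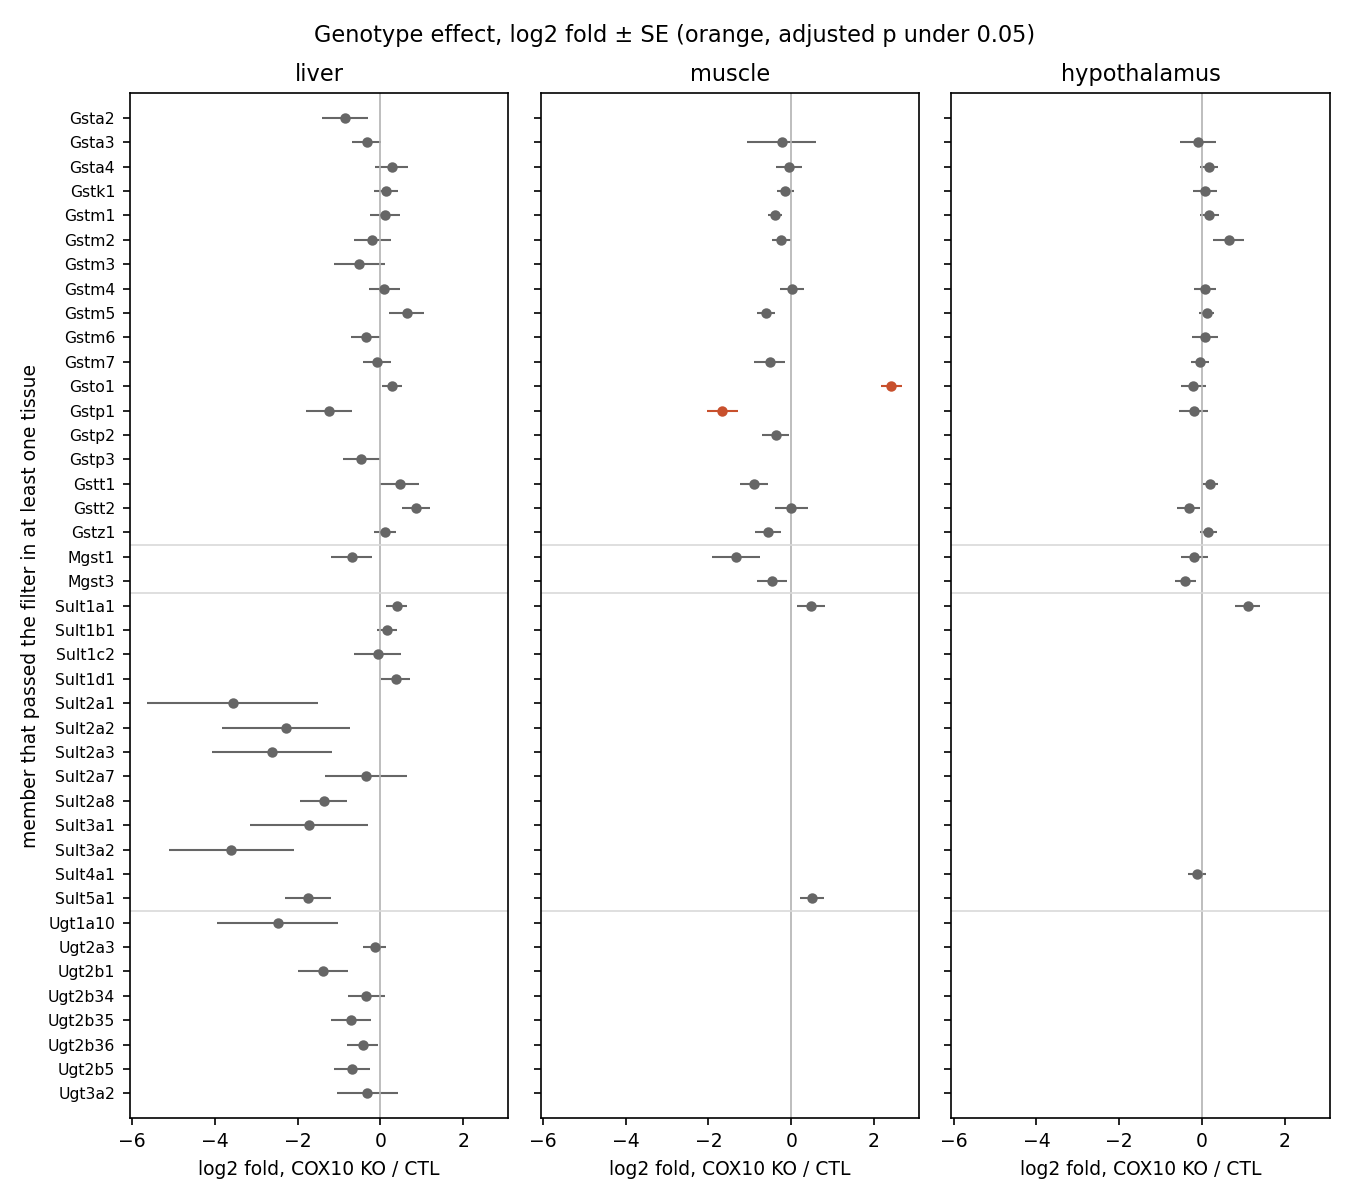
Log2 fold change of COX10 KO over CTL with its standard error for every member that passed the filter in at least 1 tissue, ordered by family, with members called at an adjusted p under 0.05 in orange. Gsto1 and Gstp1 in muscle are the only members called, the Sult2a and Sult3a genes have the widest errors in liver, and in hypothalamus the values run from -0.40 to 1.10.

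More liver members were called between the sexes than between genotypes. In the 10 libraries whose transcripts match their labelled sex, 11 of 39 tested members were called between males and females, beside 6.46% of the 9895 genes tested (edgeR with genotype as covariate), or 3.15% higher and 3.3% lower in males. In females 6 sulfotransferases were higher, and in males 4 Ugt2b genes and Gsta2. The 4 Ugt2b genes with Ugt2b34 (adjusted p = 0.0532), and Sult2a1, Sult2a2, Sult2a3, Sult3a1 and Sult5a1 on the other side, had sexes that did not overlap, 10 members in all, beside 7.43% of genes tested. Sult2a1, Sult2a2, Sult2a3 and Sult3a2 had no or nearly no counts in males, so they passed the filter on low counts only through the females. Their calls, and their part in the counts of members called or not overlapping, are a description and not independent support.

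Sult2a1, which sulfates bile acids and steroids such as DHEA, had no count in any male. It was at 384 and 269 CPM in CTL females and at 95.9, 117 and 105 CPM in COX10 KO females. Against the limit of 3 counts over the male group, females were at least 922-fold higher (edgeR adjusted p = 1.06e-05). CTL 1, labelled female, also had 0 counts, and CTL 4, labelled male, had 348 CPM. Sult2a2 showed the same split, with 3.27 to 82.4 CPM in females and 0 counts in males (at least 174-fold, adjusted p = 0.00622), and Sult2a3 ranged from 1.64 to 50.3 CPM in females and was found in 1 male library at 0.241 CPM (adjusted p = 0.00296).

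Sult3a1, an amine sulfotransferase, was at 102 and 228 CPM in CTL females and at 89.5, 87.5 and 36.0 CPM in COX10 KO females. In males it was at 0 in both CTL mice and in COX10 KO 4, and at 3.51 and 11.1 CPM in COX10 KO 5 and 6 (log2 difference male minus female -5.36 ± 1.01 SE, edgeR adjusted p = 0.0266). Its neighbour Sult3a2 was at 0 to 77.6 CPM in females and at most 0.346 CPM in males (adjusted p = 0.0181). Sult5a1 was at 26.0 to 61.9 CPM in females and 1.38 to 17.1 CPM in males (log2 difference -2.09, adjusted p = 0.028), but CTL 1, which carries male transcripts, had 85.5 CPM, the highest of all 12 livers.

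The Ugt2b genes ran the other way. Ugt2b1, a steroid and xenobiotic glucuronosyltransferase, was at 162 and 157 CPM in CTL females and at 166, 141 and 67.1 CPM in COX10 KO females. In males it was at 840 and 878 CPM in CTL and at 602, 235 and 247 CPM in COX10 KO (log2 difference 1.83 ± 0.37 SE, edgeR adjusted p = 0.0345). Every male lay above every female, and among males both CTL mice lay above the 3 COX10 KO mice. Ugt2b35, Ugt2b5 and Ugt2b36, from the same cluster on chromosome 5, had log2 differences of 1.92, 1.52 and 1.30 (adjusted p = 0.0345, 0.0345 and 0.0421), and Gsta2 of 1.97 (adjusted p = 0.0482) at only 1.64 to 56.0 CPM, with reads it can share with Gsta1.

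The promoters of Sult3a1 (chr10:33857472-33857771, plus strand) and Ugt2b1 (chr5:86926454-86926753, minus strand; both GRCm38.p6, from RefSeq) are shown as members of each direction, with the same motifs in capitals.
Sult3a1: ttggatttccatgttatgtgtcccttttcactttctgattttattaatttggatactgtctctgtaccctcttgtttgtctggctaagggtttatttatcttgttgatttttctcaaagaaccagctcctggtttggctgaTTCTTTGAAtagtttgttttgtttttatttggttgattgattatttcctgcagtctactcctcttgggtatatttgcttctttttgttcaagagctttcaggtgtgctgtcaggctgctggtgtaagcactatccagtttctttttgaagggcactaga
Ugt2b1: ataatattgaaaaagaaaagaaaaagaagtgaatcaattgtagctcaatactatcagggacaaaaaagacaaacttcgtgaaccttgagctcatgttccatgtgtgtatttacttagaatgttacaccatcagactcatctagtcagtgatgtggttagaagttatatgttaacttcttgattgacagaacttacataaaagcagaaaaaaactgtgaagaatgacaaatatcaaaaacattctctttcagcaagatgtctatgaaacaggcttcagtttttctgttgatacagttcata
Sult3a1 held 1 match to the STAT motif TTCNNNGAA, which starts at position -109, and Ugt2b1 held none of the 4 motifs. The STAT motif was found in 6 of 71 member windows (Gsta1, Gstm6, Mgst1, Mgst2, Sult3a1 and Ugt1a6a) and in 8.3% of all promoters. Of these 6 members only Sult3a1 was called between the sexes. Sult3a1 was not first in its direction, as Sult2a1, Sult2a2, Sult2a3 and Sult3a2 had smaller p-values. The windows of Sult2a3, Sult3a2 and Sult5a1 held none of the 4 motifs, so the printed Sult3a1 window does not stand for the other sulfotransferases called.

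**Figure D4:**
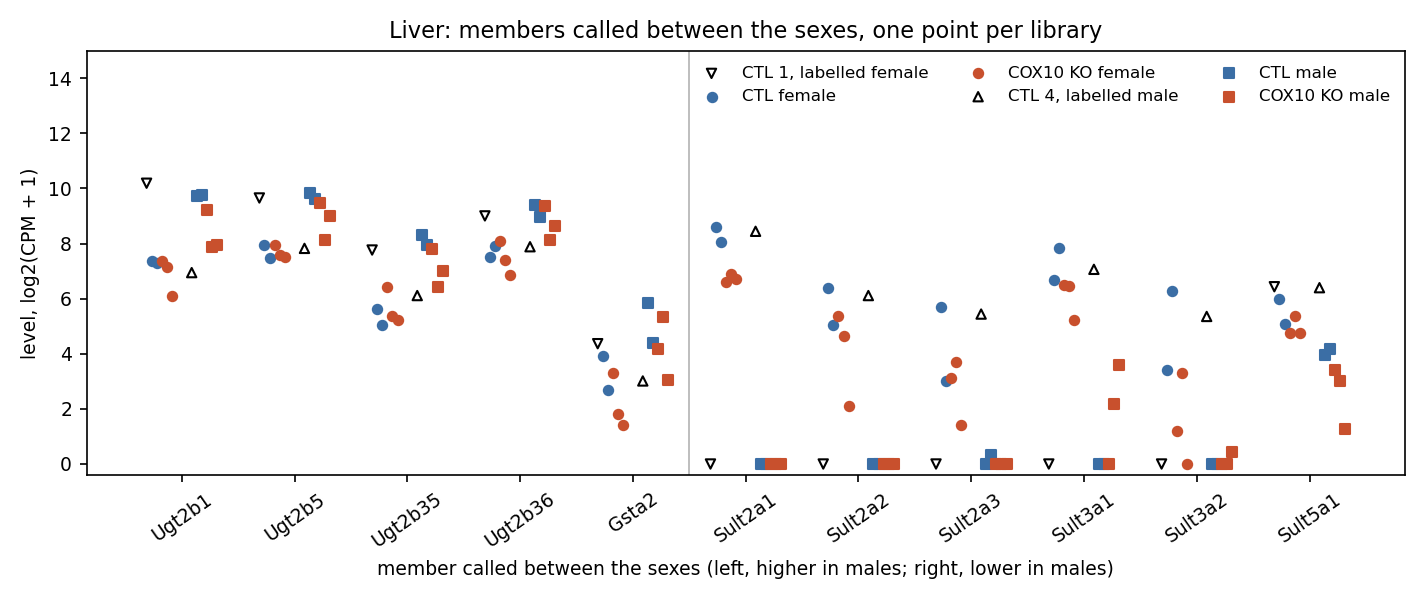
Level of the 11 members called between the sexes in liver on the scale log2(CPM + 1), with 1 point per library, females as circles and males as squares by label, CTL in blue and COX10 KO in orange, and CTL 1 and CTL 4 as open triangles under their labelled sex. The Sult2a genes lie at or near 0 in males and in CTL 1, and CTL 4 lies with the females.

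The sex calls rested on few libraries. With all 12 libraries as labelled, 0 of 38 members and 0 genes were called by edgeR (944 genes and 6 members had an unadjusted p under 0.05), and with sex read from transcripts 9 members were called higher and 5 lower in males. Leaving out CTL 2, CTL 3, CTL 5, CTL 6, COX10 KO 2, COX10 KO 4 or COX10 KO 6 left 0 members higher in males, with 4, 3, 3, 2, 3, 6 and 5 members lower. Over all genes, these fits called 4, 5, 8, 4, 7, 30 and 14 higher in males, against 312 with the 10 libraries. They called 8, 6, 7, 6, 7, 69 and 19 lower, against 327, so calls were lost over all genes and not in members alone. Sult2a1 and Sult2a2 were called lower in males in 12 of the 13 alternatives in which they were tested, all but the fit of the labelled sexes, and Sult2a3 lost its call there and without CTL 6.

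Other genes of the liver's sex program were counted for comparison. Of 9 male-biased genes from a list, 6 were called higher in males (Elovl3, Hsd3b5, Slco1a1, C6, Mup20 and Cyp4a12a), and of 8 female-biased genes none was called. Among 12 tested genes of cofactor supply, Ugdh, which makes the UDP-glucuronic acid used by UGT enzymes, was called higher in males. Of 24 phase I enzymes 5 were called higher in males (Cyp2a5, Cyp2e1, Cyp3a11, Cyp3a25 and Cbr1), of 14 other conjugating enzymes Nat8 was, and of 9 export transporters and 17 regulators none was. The macrophage markers Clec4f and C1qb were called lower in males, and Acta1, a skeletal muscle marker at 46.0 and 286 CPM in COX10 KO 4 and 6, was called higher, and the part of either in the members' values was not tested. In muscle, 0 of 18 members were called between the sexes, beside 0.0602% of 11636 genes, 0.043% higher and 0.0172% lower in males (edgeR, with 2 members at an unadjusted p under 0.05 and 0 called by DESeq2).

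Because CTL liver 1 and 4 carry transcripts of the other sex, genotypes were also compared within each sex as the transcripts give it, a grouping chosen after the data were seen. Neither sex had a called member (edgeR, 6 members in females and 5 in males at an unadjusted p under 0.05), beside 0.0534% of 9361 genes called in females and 0.224% of 9829 in males. In females, Sult2a1 had the smallest p among members (log2 fold change -1.65 ± 0.35 SE, adjusted p = 0.367): the 3 COX10 KO females lay between 95.9 and 117 CPM and the CTL libraries, CTL 4 included, between 269 and 384 CPM. Sult3a1, Sult3a2, Sult2a8 and Ugt1a10, whose reads other Ugt1a genes can share, also had COX10 KO females below all 3 CTL libraries, and Gstt2 had them above. These 6 members of 37 stood beside 9.48% of genes that did not overlap in females. In the same female livers, 1 of 8 female-biased list genes, A1bg, was called lower in COX10 KO (adjusted p = 0.0488) and none of 5 tested male-biased genes was called.

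In males, Gstp1 had the smallest p among members. It was at 6.24, 14.6 and 7.96 CPM in COX10 KO and at 48.5 and 54.0 CPM in CTL 5 and 6, with 21.6 CPM in CTL 1 (log2 fold change -2.06 ± 0.45 SE, edgeR adjusted p = 0.203). For Ugt2b1 the change was -1.39 ± 0.41 on the log2 scale (adjusted p = 0.629), with CTL 1 at 1168 CPM. Ugt2b5 and Sult5a1 were also below all CTL libraries, and Sult1a1 and Sult2a7 above them, 6 members of 32 beside 11% of genes in males. In the same male livers, 3 of 9 tested male-biased list genes were called lower in COX10 KO (Cyp7b1, Hsd3b5 and Cyp2u1) and 1 of 7 tested female-biased genes, Cyp2b13, was called higher. Of the 14 tested other conjugating enzymes, Nat8 was called lower.

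**Figure D5:**
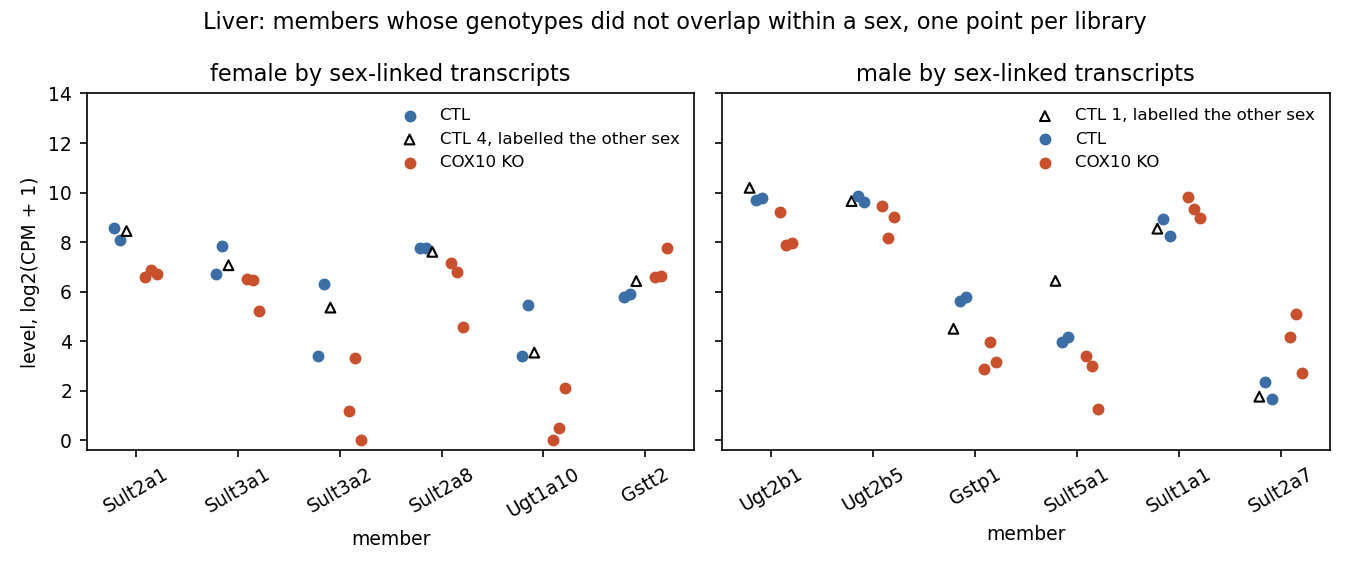
Level on the scale log2(CPM + 1) of the members whose genotypes did not overlap within a sex in liver, with 1 point per library, CTL in blue, COX10 KO in orange, and CTL 4 (left) and CTL 1 (right) as open triangles because their label gives the other sex. In females 5 members lie lower in COX10 KO and Gstt2 higher, and in males 4 lie lower and Sult1a1 and Sult2a7 higher.

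The difference between the sexes in the genotype effect was tested in the 10 matching livers. No member was called, beside 0.00961% of 10407 genes (edgeR, 4 members at an unadjusted p under 0.05), while DESeq2 called 1, Sult3a1, whose genotype effect was higher in males by 7.92 on the log2 scale (adjusted p = 0.0323). In males Sult3a1 had counts in COX10 KO 5 and 6 and none in CTL 5, CTL 6 or COX10 KO 4, and in females every COX10 KO value lay below both CTL values. In muscle, edgeR and DESeq2 called 0 of 18 and 0 of 41 members for this difference, beside 0% of 12065 genes in edgeR, and 2 members had an unadjusted p under 0.05 in each.

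The genotype effect was also compared between muscle and liver. Of 40 tested members 1, Gsto1, was called, beside 2.01% of 11661 genes, 1.02% with a higher and 0.986% with a lower effect in muscle (edgeR interaction). The log2 fold change of Gsto1 was higher in muscle than in liver by 2.14 ± 0.35 (SE, adjusted p = 0.00194), where control livers averaged 156 ± 42 CPM and KO livers 194 ± 76.5 CPM (SD, n = 6). With the 10 matching liver libraries the difference was 2.01 (adjusted p = 0.00426). DESeq2 called Gsto1, Sult5a1 and Sult3a1. COX10 KO muscle held more Gsto1 CPM than any of the 12 livers, whose highest value was 317 CPM, with the scaling set separately in each tissue.

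In hypothalamus no member was called. Of the 67 members 43 were counted and 18 passed the filter, with 10 higher and 8 lower log2 fold changes and a median of 0.07, beside -0.01 over all genes. The median's sign rested on single libraries, with -0.05 without CTL 1 and -0.08 without COX10 KO 4. Of 13504 genes tested 0% were called by edgeR (211 genes and 1 member at an unadjusted p under 0.05), and DESeq2 also called 0. The largest log2 fold change was that of Sult1a1, which sulfates phenols and catechols: it was at 3.51, 5.10, 4.08 and 6.06 CPM in CTL and at 7.56, 15.2, 7.40 and 9.54 CPM in COX10 KO. The lowest COX10 KO value exceeded the highest CTL value, and groups did not overlap for 1.4% of genes in either direction, and the log2 fold change of 1.10 ± 0.31 (SE) had an adjusted p of 1.00 and an exact permutation p of 0.0286, the smallest that 4 against 4 can give. Samples of the same number correlated at 0.2 to 0.787 in this tissue, but only number 1 stood clearly above its correlations with other numbers. Number 3 correlated more with another number (0.4348) than with its own (0.3797). With the number as a block the log2 fold change was 1.05 (edgeR adjusted p = 0.362). The exact sign-flip test within pairs, added after the data were seen, gave p = 0.125, the smallest that 4 pairs can give. In the same mice the summed choroid plexus markers, 4 genes led by Ttr, ran from 1244 to 2822 CPM in controls and from 3164 to 5276 CPM in KO mice. Nearly all of this sum was Ttr (1226 to 2805 CPM against 3138 to 5247 CPM). The other markers, Kl, Folr1 and Kcnj13, overlapped between genotypes, and 0 of the 4 were called. The part of these markers in the Sult1a1 values was not tested.

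Within the 4 pairs of the same number, 6 of 18 tested members were higher in COX10 KO in every pair (Gsta4, Gstm1, Gstm2, Gstt1, Gstz1 and Sult1a1) and Gstt2 was lower in every pair, beside 20.2% of genes with 1 direction in all pairs. Each had an exact paired p of 0.125, and none was called with the block. Gstm1 was at 217, 307, 389 and 308 CPM in CTL 1 to 4 and at 229, 329, 409 and 415 CPM in COX10 KO 1 to 4. As unpaired groups, the abundant members overlapped between genotypes. Sult4a1 ran from 212 to 354 CPM in controls and from 232 to 362 CPM in KO mice (log2 fold change -0.11 ± 0.22 SE), Gstm1 had a log2 fold change of 0.18 ± 0.24, and Gsto1 lay at 23.1 to 62.0 and 23.5 to 45.6 CPM (-0.21 ± 0.30). Gstm2 (0.64), Gstt1 (0.21), Mgst3 (-0.40) and Gstt2 (-0.32) completed the members with the smallest p-values in each direction, with all groups overlapping. None of the list genes was called: 0 of 11 for cofactor supply, 0 of 8 for phase I enzymes, 0 of 7 for other conjugating enzymes, 0 of 7 for export transporters and 0 of 12 for regulators.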

How the data were processed

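Total RNA from the 32 tissue samples had been made into QuantSeq 3′ libraries and sequenced as single 86-base reads by the authors, who trimmed the reads, used STAR 2.5.0a for alignment to the GRCm38.p6 genome and HTSeq 0.6.1 for counting (the annotation release is not given in the sources used here). The deposited values are raw read counts per Ensembl gene, 1 table per sample. Symbols came from the GENCODE M21 annotation, which matched 55141 of 55401 identifiers.

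Groups followed the labels. Counts were tested per tissue with the quasi-likelihood test of edgeR 4.0.16 in R 4.3.3, with filterByExpr, TMM factors, labelled sex as covariate in liver and muscle, and adjusted p under 0.05 as threshold. Levels are CPM on TMM-scaled library sizes. The two-sided exact permutation test compared mean CPM. The labels number the samples without naming animals, so p-values measure the spread between samples. Alternatives were DESeq2 1.42.0, RLE factors, no filter or at least 10 counts in every library, a replicate block, each library left out, each sex alone, and sex read from transcripts. Samples with the same number had correlations of 0.2 to 0.787 in hypothalamus, -0.309 to 0.187 in liver and -0.167 to 0.144 in muscle, over log2(CPM + 0.5). In hypothalamus only number 1 stood clearly above its correlations with other numbers. Members called between genotypes, the 3 with the smallest p in each direction, the most abundant members, and those called between sexes or in an interaction were named. The fits were also run on simulated counts that took their means, depths and spread from the real data, with no difference between the sexes. In liver and muscle this spread was estimated under the labelled sexes. Members, lists and tests were chosen with earlier results of these data known.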

Additional observations from a re-analysis of the deposited data

Results flagged for a closer look

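Gsto1 differed between tissues in its genotype effect: the log2 fold change was higher in muscle than in liver by 2.14 (edgeR interaction, adjusted p = 0.00194). Of 36 groups of 4 or 6 libraries, over the members with the smallest p-values between genotypes, 4 held a library far from the others by Dixon's test, where chance flags about 1 in 20. In liver, Sult2a8 in COX10 KO 4 was at 562 CPM against 22.9 to 167 CPM in the other 5 COX10 KO livers, and Sult3a2 in COX10 KO 2 was at 8.92 CPM against 0 to 1.28 CPM. In muscle, the shallow library CTL 2 stood apart for a pair of members, with Gstp1 at 1.79 CPM against 5.58 to 7.52 CPM and Sult1a1 at 57.1 CPM against 12.5 to 28.0 CPM in the other 5 CTL muscles.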

How the results depend on the processing

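In muscle the count of called members, 2 in the reported fit, was 1 (Gsto1) with at least 10 counts in every library and in females alone, and ranged from 2 to 4 when each library was left out, beside 913 to 2052 over all genes. In liver, where 0 were called between genotypes, 4 were called without a filter under the labelled sexes, and 0 when any 1 library was left out. The sex effect in liver, 11 called members, gave 0 with all 12 libraries as labelled, 4 with at least 10 counts in every library, and 2 to 16 with each library left out. Over all genes, the fits with each library left out gave 10 to 1941 calls. In muscle, 0 members were called between the sexes with each library left out, and in hypothalamus 0 between genotypes. DESeq2 gave 1 called member for the genotype by sex interaction in liver, against 0, and 3 for the muscle minus liver difference, against 1. The direction turned for Sult1a1 in liver females by transcripts (-0.010), for Sult5a1 (-0.10) and Sult1a1 (-0.068) in muscle females alone and for Gsto1 in hypothalamus without CTL 4 (0.052, with -0.44 as the lowest over the libraries left out), none of them called. The causes were not tested. The replicate block gave 2 called members in muscle, 0 in liver and 0 in hypothalamus, and changed no call of a member. Over all genes, muscle went from 803 higher and 865 lower to 533 and 454 with the block, 563 and 548 with at least 10 counts in every library, 163 and 134 in females and 157 and 124 in males. Liver went from 2 higher and 7 lower to 19 and 36 with DESeq2, 57 and 118 without a filter, 0 and 0 with at least 10 counts in every library, 0 and 1 in either labelled sex, 8 and 20 with sex read from transcripts and 2 and 14 in the 10 matching libraries. In hypothalamus the block called 2 genes. The sex effect in liver went from 312 higher and 327 lower to 1266 and 920 with sex read from transcripts, 970 and 729 with DESeq2 and 163 and 156 with at least 10 counts in every library, and that in muscle from 5 and 2 to 11 and 5 with DESeq2. DESeq2 called 6 and 4 genes for the sex interaction in liver, 3 and 1 in muscle, and 295 and 417 for the tissue interaction (119 and 115 in edgeR). Members at a few CPM rest on few counts in the shallow libraries, so their changes were not detectable at this depth unless large. The limit is wider than these members. In simulated data over all genes that passed the filter, 2-fold changes were called for 5.26% in liver, 29.2% in muscle and 35.1% in hypothalamus. For 4-fold changes the shares were 78.7%, 89.1% and 94.7%.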
